A study of Homo sapiens with 156 samples.

Results

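The leukocyte immunoglobulin-like receptors are cell-surface proteins of myeloid and lymphoid cells, encoded side by side in the leukocyte receptor complex on chromosome 19. The 9 genes described here were taken by name from 59939 genes measured in 3 leukemia cell lines: the inhibitory receptors LILRB1, LILRB2, LILRB3 and LILRB4, the collagen receptor LAIR1 of the same cluster, and the activating receptors LILRA1, LILRA2, LILRA5 and LILRA6. All 9 symbols were found, each with 1 identifier. The members were taken by name and not by a cut on measured values, though with earlier results of these data known.

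Inhibitory members carry tyrosine motifs in their tails (ITIMs) that recruit the phosphatases SHP-1 and SHP-2, encoded by PTPN6 and PTPN11, and so dampen activating signals. Activating members have short tails and signal through the adaptor FcR gamma chain, encoded by FCER1G. LILRB1 and LILRB2 bind HLA class I molecules, LAIR1 binds collagens and the complement protein C1q, and LILRB4, which is expressed on monocytic leukemia cells, has been described to bind apolipoprotein E.

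Sequencing covered RNA of NOMO1, MV411 and THP1 cells, human acute myeloid leukemia lines that all carry a rearranged KMT2A gene, with 52 libraries per line in 26 groups of 2. The study compared GSK032 (GSK3685032), a reversible inhibitor of the maintenance DNA methyltransferase DNMT1, with decitabine (DAC), a cytosine analog that is built into DNA and traps DNA methyltransferases. Each had a time series of days 1, 2, 4 and 6 at 400 nM and a dose series on day 4 of 3.2, 16, 80, 400, 2000 and 10000 nM. GSK862 (GSK3484862), a further DNMT1 inhibitor, was given at 1000 nM and GSK477 (GSK3510477), used as a compound that does not inhibit DNMT1, at 10000 nM, each for 2 and 4 days. The solvent DMSO was sampled on days 1, 2, 4 and 6, all cells having been plated a day before treatment. Each line is a single established culture, so the 2 libraries of a group stand for that line and not for patients. The labels do not say whether the 2 libraries of a group had cultures of their own, so a p-value here weighs a difference against library-to-library spread that may be technical. In bulk RNA, fewer cells expressing a receptor and less of its RNA per cell cannot be told apart.

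Values are FPKM (fragments per kilobase of transcript, scaled to library size), a level per length. Differences are given on the log2(FPKM + 0.5) scale, which understates the change of genes near or under 0.5 FPKM. A gene is said to rise or fall where its limma test passed at an adjusted p under 0.05, and is called changed where the log2 difference was also at least 1 in size. Genes were tested in a line where at least 2 libraries reached 1 FPKM. By that filter 8 of 9 members were tested in MV411 (not LILRA6), 6 in THP1 (not LILRA1, LILRA5 and LILRA6) and 9 in NOMO1. LILRB3 reached 1 FPKM in 4 libraries of MV411 and 2 of THP1, all of them at 2000 or 10000 nM DAC, so its tests at those doses were set up by the group where it was high.

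In hg38 the genes lie within chr19, on the minus strand LILRB3 (54216278 to 54223506), LILRA6 (54236592 to 54242791), LILRB2 (54273821 to 54281184), LILRA5 (54307070 to 54313139) and LAIR1 (54351384 to 54370558), and on the plus strand LILRA2 (54572920 to 54590287), LILRA1 (54593582 to 54602090), LILRB1 (54617158 to 54637528) and LILRB4 (54643889 to 54670359), in the GENCODE 29 annotation. Sequence is shared between them. Of the 31-base words in its transcripts, LILRB3 shared 41.5% with some other gene (22.8% with LILRA6) and LILRA6 36.1% (31.2% with LILRB3). LILRB1 shared 32.4%, LILRA2 29.3%, LILRB2 27.3%, LILRB4 19.9%, LILRA1 18.1%, LILRA5 15.4% and LAIR1 9.56%. Values of single members, LILRB3 and LILRA6 above all, are therefore uncertain as far as the counting could split shared fragments. LILRB3 and LILRA6 also lie on the opposite strand inside the annotated span of RPS9, a ribosomal protein gene with up to 1350 FPKM in NOMO1. Whether their exons overlap those of RPS9 was not checked. Without strand information, reads from any such overlap could not be told apart. RPS9 was lower in NOMO1 where LILRB3 and LILRA6 were higher. At day 4 it measured 1001 and 1159 FPKM in DMSO and 759.5 and 840.1 with 10000 nM GSK032. With 10000 nM DAC it measured 534 and 595 FPKM.

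The sequences before the annotated transcription starts show which members resemble each other there, by letters only. RefSeq (GRCh38.p14) gave 15 promoters for 8 members, and none was matched for LILRA6. In the 250 bases before the start they held 1 to 9 CG pairs each, the site that DNMT1 methylates, against a median of 11 over all 35116 promoters. Several members have more than 1 annotated start, and the likeness of 2 genes depends on the start taken. The 3 below, 1 start each of LILRB1, LILRB2 and LILRA1, are shown because they are the closest group of 3 genes over nearly the whole window. Over their aligned windows LILRB1 and LILRA1 were 95.2% identical, LILRB1 and LILRB2 91.9%, and LILRB2 and LILRA1 91.2%. Other starts of LILRB2 and LILRA1 resembled LILRA2 instead (88.7% over 230 aligned bases and 89.6% over 182), a gene that fell with DAC in NOMO1 where LILRB1, LILRB2 and LILRA1 rose. Bases run 5′ to 3′ on the gene's strand and stop before the first annotated exon, and capitals mark CG pairs. LILRB1 has several starts, and the one shown lies inside the gene's span. The identities and CG counts above are over whole 250-base windows, many of which run into annotated exons past the printed bases.
LILRB1, chr19:54630234-54630409, plus strand: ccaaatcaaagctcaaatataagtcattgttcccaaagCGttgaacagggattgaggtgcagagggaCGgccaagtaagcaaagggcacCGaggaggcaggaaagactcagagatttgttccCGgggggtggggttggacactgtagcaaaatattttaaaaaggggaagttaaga
LILRB2, chr19:54281185-54281360, minus strand: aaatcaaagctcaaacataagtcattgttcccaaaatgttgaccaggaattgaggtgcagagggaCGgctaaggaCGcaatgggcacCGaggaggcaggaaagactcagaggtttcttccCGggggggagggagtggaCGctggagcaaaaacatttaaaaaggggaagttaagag
LILRA1, chr19:54593382-54593581, plus strand: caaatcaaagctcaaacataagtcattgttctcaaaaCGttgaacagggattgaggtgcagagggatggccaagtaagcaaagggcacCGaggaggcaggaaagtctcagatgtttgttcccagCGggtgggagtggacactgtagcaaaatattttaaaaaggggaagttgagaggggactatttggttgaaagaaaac

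The next 3, of LILRB3, LILRB4 and LILRA2, all lie inside their gene's annotated span before an exon and also resembled each other, yet their genes moved differently (below). LILRB3 and LILRB4 were 87.1% identical over 225 aligned bases, LILRB4 and LILRA2 82.5% over 194, and LILRB3 and LILRA2 81.5% over 189.
LILRB3, chr19:54223088-54223257, minus strand: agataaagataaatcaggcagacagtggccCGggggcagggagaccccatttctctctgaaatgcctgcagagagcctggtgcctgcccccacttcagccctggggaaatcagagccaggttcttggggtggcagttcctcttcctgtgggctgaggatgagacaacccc
LILRB4, chr19:54662735-54662818, plus strand: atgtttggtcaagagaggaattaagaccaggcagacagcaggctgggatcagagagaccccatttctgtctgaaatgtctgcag
LILRA2, chr19:54573540-54573697, plus strand: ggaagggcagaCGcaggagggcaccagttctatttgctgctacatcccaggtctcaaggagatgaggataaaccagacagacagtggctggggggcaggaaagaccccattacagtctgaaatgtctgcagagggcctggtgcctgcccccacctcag

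GAGGAA, the core of sites for the myeloid factor PU.1, was found on either strand in 5 of the 15 member promoters, and in 23.6% of all promoters of that length. These are matches of letters only.

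In units of 1000, the FPKM of a library summed to between 1263 and 3073, so the tables are not on an equal-sum scale. Low values of 9851 single-transcript genes put the scale of the libraries at 33.5 to 128 M fragments (medians of 68.15 M in NOMO1, 64.85 M in MV411 and 63.35 M in THP1). No counts were given, so no counting interval can be set on a level. Monocytic and myeloid markers were present in all 3 lines, with a summed level in day 4 DMSO of 5750 to 5970 FPKM in NOMO1, 1060 to 1230 in MV411 and 722 to 800 in THP1. Markers of other lineages moved too, and not in NOMO1 alone. In NOMO1 at day 4 the sum of 5 T cell markers was 10.3 to 12.6 FPKM in DMSO (CD3D alone, with CD3E, CD3G, CD2 and CD5 under 0.1), 29.7 to 34.5 with 400 nM GSK032 and 155 to 168 with 400 nM DAC. Most of the DAC sum was CD3D (mean 154). The 4 erythroid and megakaryocytic markers summed there to 1.74 to 2.12, 21.1 to 21.9 and 87.4 to 105 FPKM (ITGA2B 79.1 with DAC), the 4 epithelial markers to 37.8 to 38, 63.5 to 64.6 and 129 to 159. Plasmacytoid dendritic cell markers did not rise with DAC (12.7 to 13.7 in DMSO, 11.5 to 11.9). In THP1 the epithelial sums were 1.89 to 2.73, 4.46 to 5.16 and 11.9 to 13.1 FPKM. In MV411 the erythroid and megakaryocytic sums were 3.85 to 5.97, 10.1 to 12 and 14.7 to 14.9. The part of these shifts in the receptors' changes was not tested.

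In DMSO, LAIR1 was the highest of the 9 in every line and LILRB4 or LILRA2 came next. MV411 had the following median (range) over its 8 DMSO libraries: LAIR1 218 FPKM (196 to 239.9), LILRB4 136 (103.5 to 169.6), LILRA2 16.1 (12.7 to 26.2), LILRB1 8.12 (6.85 to 10.1), LILRA1 7.60 (5.00 to 8.25), LILRB2 1.87 (1.67 to 2.33), LILRA5 1.17 (0.718 to 1.96) and LILRB3 0.618 (0.202 to 0.964). LILRA6 had a median of 0.052 FPKM and was listed at 0 in some MV411 libraries. The neighbours LILRB1 and LILRA1, LILRB2 and LILRA5, and LILRA5 and LILRB3 overlapped in range, while the others did not.

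THP1 had only 3 members well above 1 FPKM, LAIR1 at 159 (125 to 171), LILRB4 at 67.9 (54.2 to 73.8) and LILRA2 at 20.1 (17.1 to 24.5). The other 6 ranged from 0.861 for LILRB1 to 0.059 for LILRA6, and each overlapped its neighbour. NOMO1 differed in order: LAIR1 stood at 116 FPKM (105 to 136), then LILRA2 at 46.3 (45.9 to 55.2), above LILRB4 at 17.3 (15.3 to 19.9). Its other members had medians of 2.61 for LILRA5, 2.11 for LILRB2, 1.94 for LILRA1, 1.24 for LILRB3, 0.967 for LILRB1 and 0.525 for LILRA6, again each overlapping the next. The 3 tables may have been normalized apart, so levels of different lines are set side by side without a test.

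**Figure D1:**
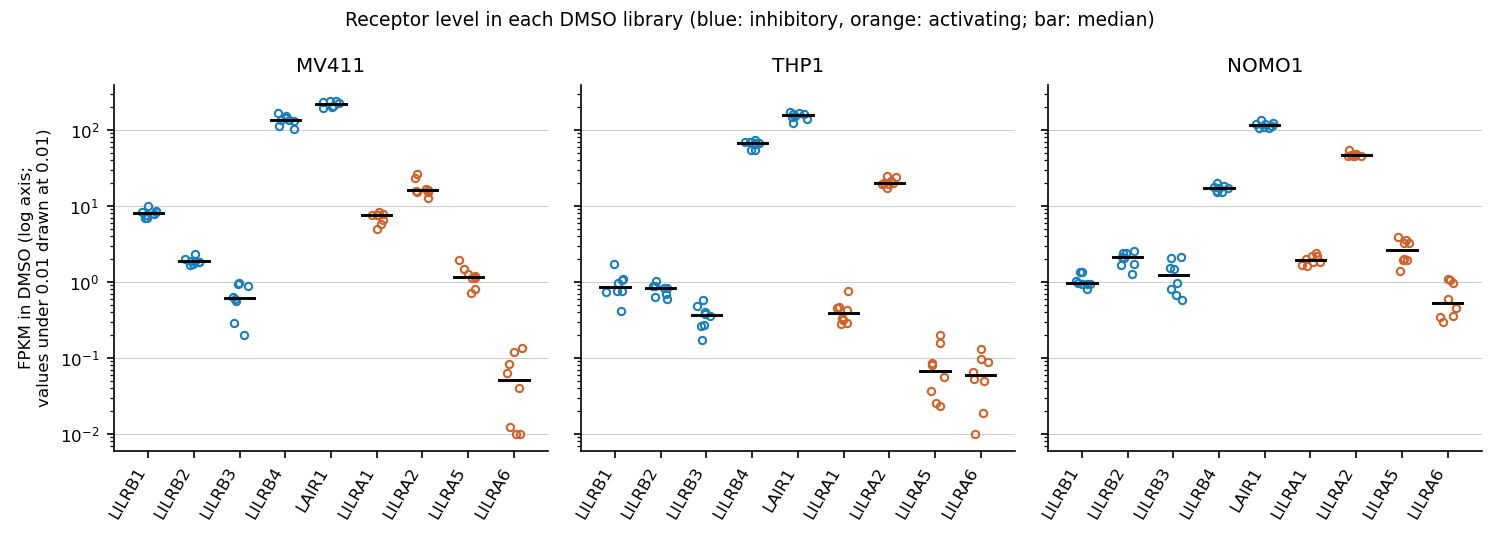
FPKM of each receptor gene in each of the 8 DMSO libraries per line, on a log axis with values under 0.01 drawn at 0.01; points are libraries, bars medians, blue the inhibitory and orange the activating receptors. LAIR1 is highest in all 3 lines (medians 218, 159 and 116 FPKM), and LILRA2 lies above LILRB4 only in NOMO1.

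Solvent alone moved some members over time. From day 1 to day 6 of DMSO in NOMO1, LILRB3 rose from 0.819 and 0.573 to 2.05 and 2.11 FPKM (log2 difference 1.12, SE 0.24, adjusted p = 0.00453). It did not pass without day 1 replicate 2 (0.968, adjusted p = 0.115) or day 6 replicate 2 (1.099, adjusted p = 0.0612). LILRA5 rose by 0.92 and LILRA6 by 0.93 in the same cells. In MV411 LILRA2 rose by 0.78 and LILRA1 fell by 0.42, and in THP1 LILRB1 fell by 0.80. After scaling libraries to equal sums, LILRA5 (adjusted p = 0.0956), LILRA6 (0.052), LILRA1 (0.313) and LILRB1 (0.0918) no longer passed. Each treated group was therefore compared with DMSO of its own day.

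At 400 nM and day 4, the condition shared by the dose and time series, the 2 compounds gave unlike pictures in the 3 lines. With DAC in NOMO1, 4 of 9 members were called, all higher (LILRB1, LILRB2, LILRB3 and LILRA6), where 19.1% of all 20763 genes tested were called. Those that passed were 6 higher and 3 lower, which is all 9, against 52.3% of genes. With GSK032 in NOMO1 none of 9 was called (2.93% of genes; 5 had an unadjusted p under 0.05), while 3 rose and 2 fell (18.5% of genes passed). In MV411 LILRA5 alone was called, lower, with either compound (1 of 8; 9.31% of 22007 genes with GSK032, 10.2% with DAC). There 3 members rose and 1 fell with GSK032 (33.2% of genes passed), and 2 rose and 3 fell with DAC (35.8%). THP1 had none of 6 called with GSK032 (2.27% of 23226 genes) or DAC (8.16%), with 3 members at an unadjusted p under 0.05 in each. With each compound 2 members passed higher and 1 lower in THP1 (23% and 38.5% of genes passed). These counts depended on the scaling of the libraries. After scaling to equal sums LILRA2 alone passed with GSK032 in THP1, and LILRA2 and LILRB4 with DAC. In NOMO1 with GSK032 LILRB3 and LILRA2 then passed, and in MV411 with DAC LILRA2, LILRB4 and LILRA5. One called member of 8 in MV411 is close to the share of all genes. The comparisons with DMSO share their control libraries, so their likeness is no evidence of its own.

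**Figure D2:**
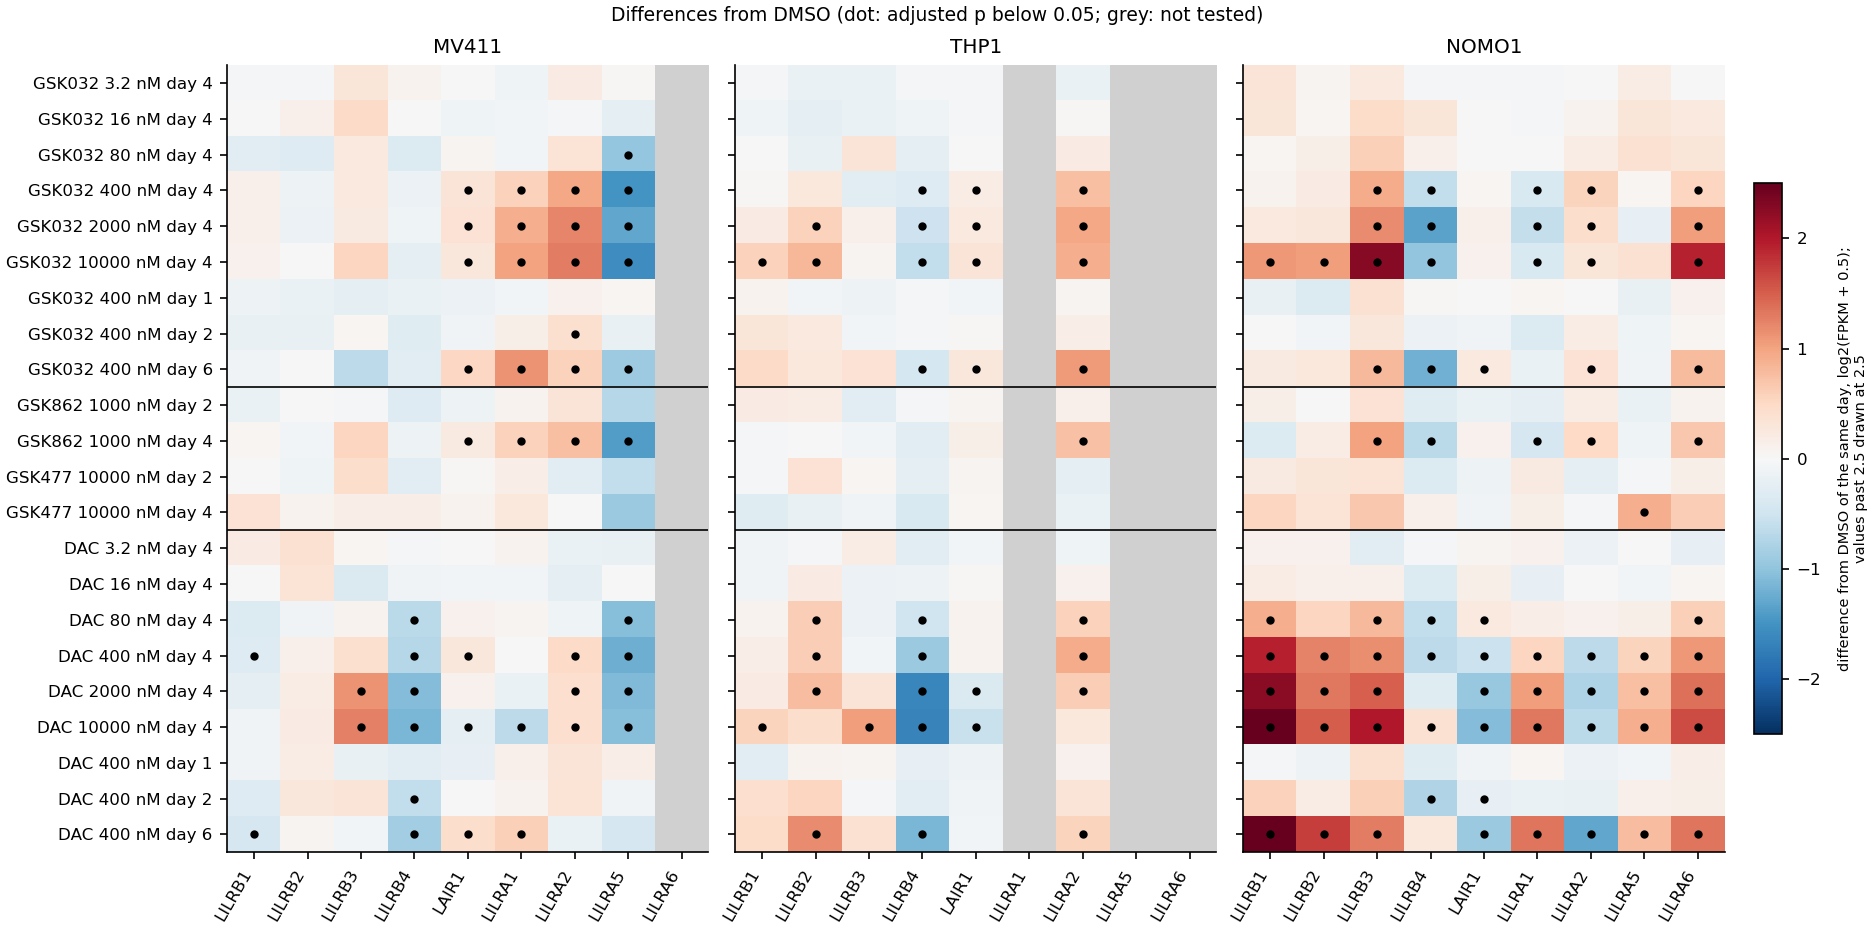
Difference from DMSO of the same day on the log2(FPKM + 0.5) scale for every compound, dose and day (vertical) and receptor gene (horizontal) in the 3 lines; red is higher, blue lower, values past 2.5 are drawn at 2.5, dots mark an adjusted p under 0.05 and grey columns were not tested. No dot falls on day 1 or on 3.2 or 16 nM, and the NOMO1 DAC block from 400 nM holds the strongest red, led by LILRB1 (2.86 at 10000 nM).

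At most 6.83% of all genes passed on day 1 or at 3.2 and 16 nM, so that no member did is no trait of the receptors. No member passed on day 1 in any line, where the share of all genes that passed was 0.268% (MV411), 0.0387% (THP1) and 0.0433% (NOMO1) with GSK032 and 3.17%, 1.23% and 3.09% with DAC. None passed at 3.2 nM either, where these shares were 0, 0.00431% and 0.0144% with GSK032 and 0.359%, 0.0689% and 0.0722% with DAC. The same held at 16 nM, with shares of 0.0545%, 0.00431% and 0.00482% for GSK032 and 1.59%, 2.26% and 6.83% for DAC. With 80 nM DAC, 2 of 8 members passed in MV411, 3 of 6 in THP1 and 5 of 9 in NOMO1. With 80 nM GSK032 it was 1 in MV411 and 0 in THP1 and NOMO1. The share of all genes at 80 nM is not given here, so these counts are not weighed. The 400 nM groups of day 2 had shares of 6.87%, 5.92% and 1.71% with GSK032 and 13.8%, 11.2% and 22.1% with DAC. On day 2 the passing members were LILRA2 in MV411 with GSK032 (0.40, SE 0.12, adjusted p = 0.0463), LILRB4 with DAC in MV411 and in NOMO1, and LAIR1 with DAC in NOMO1 (-0.20, SE 0.063, adjusted p = 0.0231). That of LAIR1 did not pass after scaling to equal sums (-0.128, adjusted p = 0.776) or by median ratios (-0.121, adjusted p = 0.198). On day 6 at 400 nM, 6 of 9 members were called with DAC in NOMO1 (24.6% of genes) and 1 with GSK032 (5.24%). In MV411 that day 1 of 8 was called with GSK032 (12.4%) and none with DAC (10.9%), and in THP1 1 of 6 with GSK032 (4.08%) and 2 with DAC (11.1%). At 10000 nM and day 4, called members numbered 3 of 8 with GSK032 (17.7% of genes) and 3 with DAC (23.3%) in MV411, none (7.69%) and 2 of 6 (16.5%) in THP1, and 4 of 9 (12.4%) and 6 (25.5%) in NOMO1. The 3 with DAC in MV411 were LILRB3, LILRB4 and LILRA5, of which LILRB4 (-0.732) and LILRA5 (-0.828) were under 1 in size after median-ratio scaling, and LILRB3 (0.939) after scaling to equal sums. The DAC counts of MV411 and THP1 at 10000 nM include LILRB3, which entered the tests of those lines only through high-dose DAC groups.

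LILRB1, an inhibitory receptor for HLA class I, showed the largest difference from DMSO of the 9, with DAC in NOMO1. At day 4 its NOMO1 levels were 1.36 and 1.02 FPKM in DMSO, 2.22 and 3.16 at 80 nM DAC, 5.02 and 7.05 at 400 nM, 7.42 and 7.70 at 2000 nM, and 11.3 and 12.0 at 10000 nM. Every DAC group from 80 nM up lay clear of DMSO. The log2 difference was 1.94 at 400 nM (SE 0.27, adjusted p = 3.8e-07) and 2.86 at 10000 nM (adjusted p = 1.76e-10).

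By day 6 at 400 nM DAC, LILRB1 in NOMO1 reached 8.98 and 10.8 FPKM against 0.952 and 1.36 in DMSO, a log2 difference of 2.65 (SE 0.27, adjusted p = 8.2e-10). GSK032 gave 1.39 and 1.22 FPKM at 400 nM on day 4 and 1.501 and 1.46 at 2000 nM, within or next to the DMSO values. At 10000 nM GSK032 the 2 libraries stood apart, at 1.81 and 5.00 FPKM. Their rise of 1.09 passed, but without replicate 2 it was 0.459 (adjusted p = 0.186), and without DMSO replicate 2 it was 0.942. Compared directly at 400 nM and day 4, LILRB1 was lower with GSK032 than with DAC by a log2 difference of -1.84 (SE 0.27, adjusted p = 1.31e-06), and 3 of 9 members were called in that comparison (13.2% of genes).

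LILRB1 moved little in the other lines. In MV411, where its DMSO level was highest, it measured 7.01 and 6.85 FPKM in DMSO and 5.89 and 5.03 with 400 nM DAC at day 4 (-0.32, SE 0.12, adjusted p = 0.0313), and 5.58 and 5.69 against 7.92 and 7.59 at day 6 (-0.43). The day 4 difference did not pass after either scaling (adjusted p = 0.114 for equal sums and 0.329 for median ratios), nor without DMSO replicate 1 (0.126), DMSO replicate 2 (0.0823) or DAC replicate 2 (-0.218, adjusted p = 0.295). Its trend over the 6 DAC doses in MV411 was -0.30, but 0.133 after scaling libraries by median ratios and -0.79 after scaling to equal sums. In THP1 it stayed near 1 FPKM, with 0.963 and 1.104 in DMSO, 1.504 and 2.10 at 10000 nM GSK032 (0.58, adjusted p = 0.0287) and 1.56 and 1.96 at 10000 nM DAC (0.56, adjusted p = 0.0264). Neither passed after scaling to equal sums (adjusted p = 0.0509 and 0.126).

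LILRB2, also a receptor for HLA class I, followed LILRB1 in NOMO1 from a higher start. It measured 2.12 and 2.38 FPKM in day 4 DMSO, 5.18 and 6.85 with 400 nM DAC and 7.28 and 7.49 with 10000 nM. All treated libraries lay above DMSO. The log2 differences were 1.24 (SE 0.21, adjusted p = 1.22e-05) and 1.52, and at day 6 it reached 8.35 and 10.6 FPKM against 2.43 and 2.56 (1.73). With 400 nM GSK032 it measured 2.61 and 2.74 FPKM and did not pass, and the direct difference was -1.03 (SE 0.21, adjusted p = 0.000188). At 10000 nM GSK032 it rose to 3.88 and 6.83 FPKM (1.05, but 0.674 without replicate 2 and 0.977 without DMSO replicate 1).

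LILRB2 was low in THP1 and passed there too. Day 4 DMSO had 0.840 and 0.874 FPKM, against 1.24 and 1.96 with 400 nM DAC (0.61, SE 0.19, adjusted p = 0.0124) and 1.72 and 2.11 with 10000 nM GSK032 (0.83, adjusted p = 0.000889). The 400 nM DAC difference did not pass after scaling to equal sums (0.367, adjusted p = 0.236), nor without DMSO replicate 1 (adjusted p = 0.0605) or DAC replicate 2 (0.359, adjusted p = 0.255). At 10000 nM DAC the values of 1.202 and 1.49 FPKM did not pass. On day 6 the DAC libraries had 2.23 and 2.39 FPKM and DMSO 0.606 and 0.882, and the log2 difference of 1.18 was called. In MV411 no difference of LILRB2 from DMSO passed, and its 52 libraries ranged from 1.35 to 2.79 FPKM.

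LILRB3, an inhibitory receptor of granulocytes and monocytes, rose with both compounds in NOMO1. Its levels at day 4 were 1.502 and 1.505 FPKM in DMSO, 2.69 and 4.06 with 400 nM GSK032, 7.40 and 11.4 with 10000 nM GSK032, 3.79 and 4.13 with 400 nM DAC and 7.42 and 7.67 with 10000 nM DAC. The groups did not overlap with DMSO. GSK032 gave 0.93 at 400 nM (SE 0.24, adjusted p = 0.00506) and 2.27 at 10000 nM (adjusted p = 3.32e-09), DAC 1.15 (adjusted p = 0.000132) and 2.01. The 400 nM GSK032 rise was 0.672 and did not pass without GSK032 replicate 2 (adjusted p = 0.133). The direct difference between the compounds at 400 nM was -0.22, with a 95% interval of -0.71 to 0.26, so neither compound was shown to be higher.

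LILRB3 stayed under 1 FPKM in most libraries of the other lines. In MV411 it had 0.202 and 0.555 FPKM in day 4 DMSO and 1.67 and 1.47 at 10000 nM DAC (1.26, SE 0.32, adjusted p = 0.00127, but 0.97 without DMSO replicate 1 and 0.939 after scaling to equal sums). At 2000 nM DAC it had 1.24 and 1.52 FPKM (1.12, but 0.831 with an adjusted p of 0.0874 without DMSO replicate 1). THP1 showed 0.374 and 0.488 FPKM in DMSO and 1.02 and 1.92 at 10000 nM DAC (1.05, but 0.71 without DAC replicate 2, 0.957 without DMSO replicate 1 and 0.903 after scaling to equal sums). These DAC groups are the ones through which LILRB3 entered the tests in both lines.

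LILRB4, the inhibitory receptor of monocytic cells, went down in all 3 lines with DAC at 400 nM, the only one of the 6 members tested in every line to do so. In THP1 it fell from 54.2 and 54.6 FPKM in day 4 DMSO to 29.0 and 28.0 with 400 nM DAC (-0.92, SE 0.11, adjusted p = 1.14e-07) and to 15.7 and 17.8 with 10000 nM (-1.67, adjusted p = 3.32e-13). GSK032 also lowered it in THP1, to 42.1 and 44.3 FPKM at 400 nM (-0.33, adjusted p = 0.0333) and to 35.4 and 35.5 at 10000 nM (-0.61). The 400 nM GSK032 fall passed neither after scaling to equal sums (adjusted p = 0.0559) or by median ratios (-0.227, adjusted p = 0.11) nor when any 1 of its 4 libraries was left out (adjusted p from 0.0751 to 0.169). The 2 compounds differed directly, with GSK032 higher than DAC by 0.59 at 400 nM (adjusted p = 0.000232, and 0.891 after scaling to equal sums) and by 1.06 at 10000 nM (adjusted p = 7.87e-09, and 0.973 without DAC replicate 1).

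MV411 had the highest LILRB4 level, 114 and 104 FPKM in day 4 DMSO. DAC at 400 nM gave 75.0 and 58.3 (-0.71, SE 0.18, adjusted p = 0.00194, but -0.533 with an adjusted p of 0.0647 without DAC replicate 2) and at 10000 nM 60.6 and 39.4 (-1.15, adjusted p = 2.76e-06). The fall at 10000 nM was -0.732 after median-ratio scaling and -0.836 without DAC replicate 2, under the size that is called. The fall was present on day 2 (87.9 and 93.6 against 144 and 136 FPKM, -0.62, adjusted p = 0.0168) and on day 6 (92.0 and 85.1 against 153 and 170, -0.86). With GSK032 LILRB4 measured 110 and 86.8 FPKM at 400 nM and 102 and 83.5 at 10000 nM, and no dose or day passed. At 10000 nM GSK032 stood above DAC by 0.91 (SE 0.18, adjusted p = 0.000142), or 1.552 after scaling to equal sums.

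In NOMO1 LILRB4 turned round with DAC dose and time, and the order of the compounds turned with it. DMSO at day 4 had 15.3 and 15.8 FPKM, 80 nM DAC 8.71 and 11.6, 400 nM 9.74 and 9.59, 2000 nM 12.7 and 12.3, and 10000 nM 20.1 and 20.5. The 400 nM group lay below DMSO (-0.66, adjusted p = 0.000273) and the 10000 nM group above it (0.37, adjusted p = 0.0284, and 0.593 after median-ratio scaling). Over time at 400 nM DAC, LILRB4 was at 10.7 and 11.6 FPKM on day 2, against 18.6 and 19.9 in DMSO (-0.76, adjusted p = 0.00022), and at 17.6 and 21.5 on day 6, where it did not pass.

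GSK032 lowered LILRB4 in NOMO1 without such a return, to 10.3 and 9.60 FPKM at 400 nM (-0.63, SE 0.15, adjusted p = 0.00209, but 0.0965 after scaling to equal sums), 5.86 and 5.77 at 2000 nM (-1.35, adjusted p = 1.13e-08), and 6.13 and 9.36 at 10000 nM (-0.99). On day 6 it had 5.86 and 7.91 FPKM against 15.4 and 17.0 (-1.19, adjusted p = 1.63e-07, and -0.992 without GSK032 replicate 1). The direct difference of GSK032 from DAC in NOMO1 was 0.73 at 80 nM (adjusted p = 0.000193), 0.036 at 400 nM (95% interval -0.26 to 0.33), -1.05 at 2000 nM (adjusted p = 5.29e-07) and -1.36 at 10000 nM (adjusted p = 3.83e-09). In NOMO1 GSK032 was thus higher at the low dose and lower at the high doses.

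**Figure D3:**
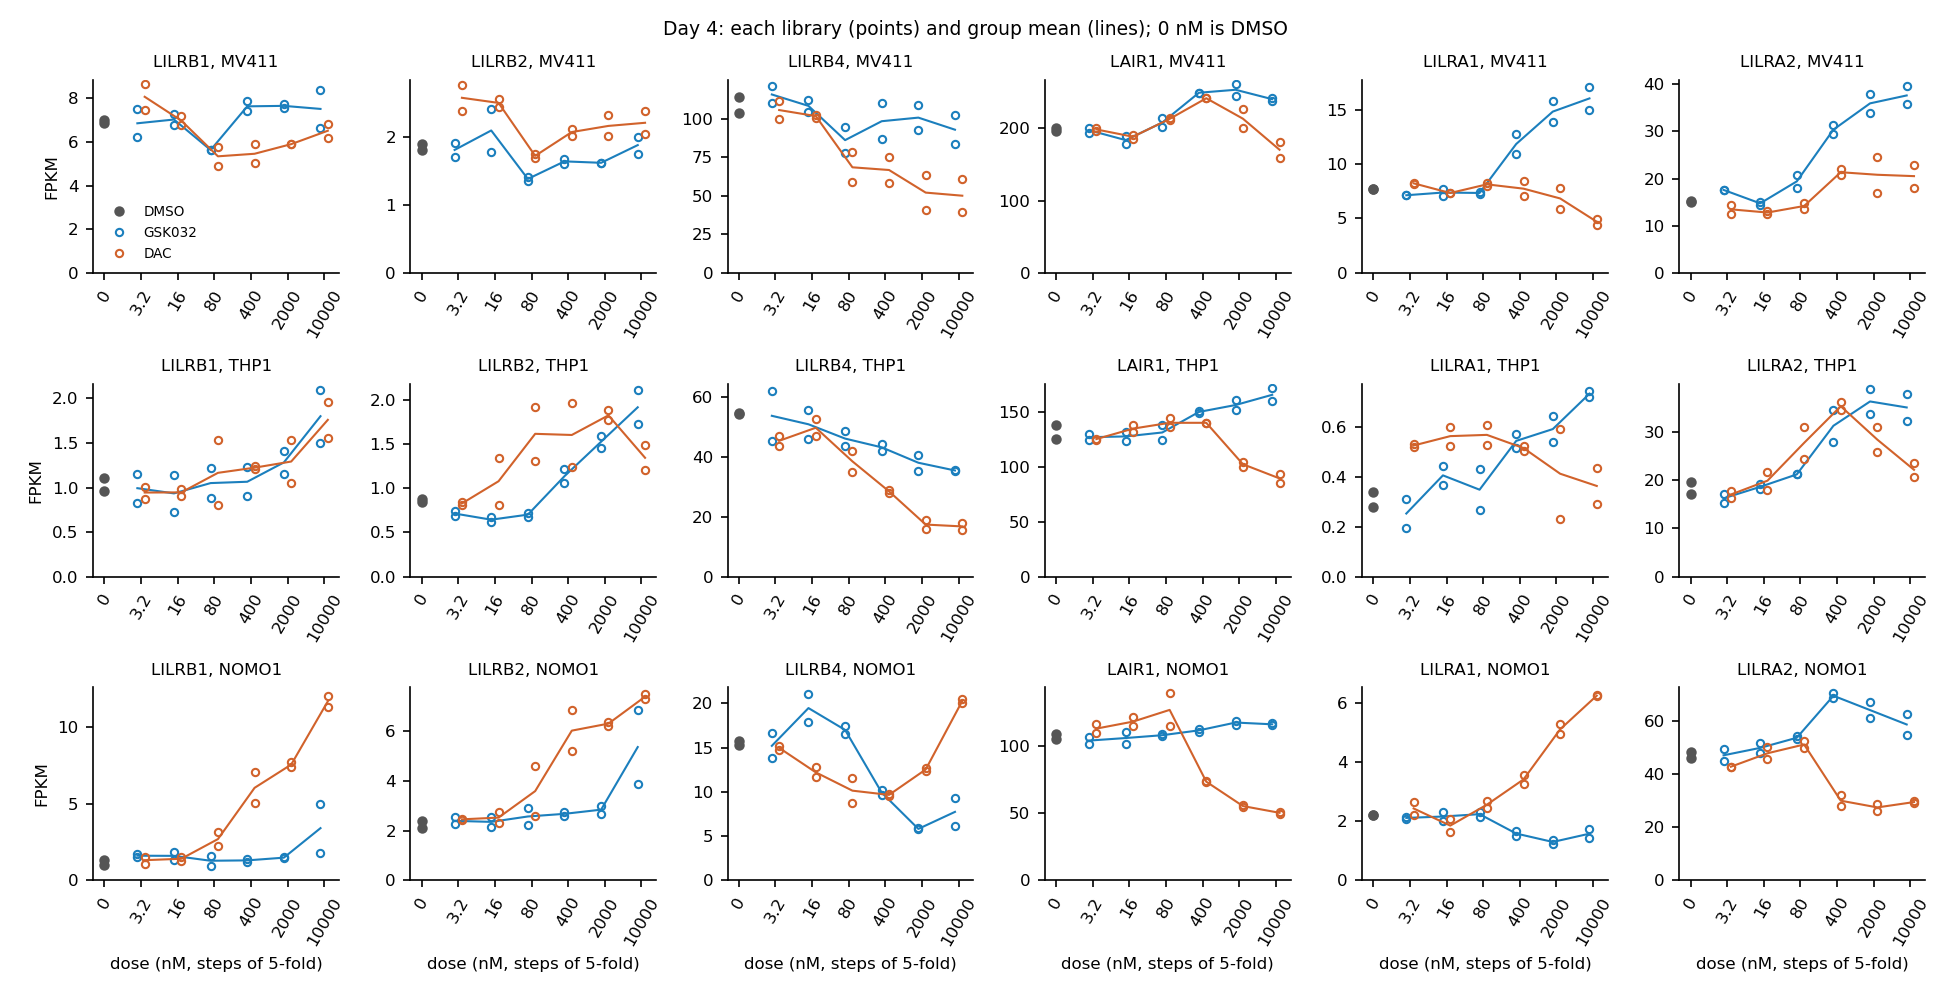
FPKM at day 4 against dose in nM (0 is DMSO) for LILRB1, LILRB2, LILRB4, LAIR1, LILRA1 and LILRA2 in the 3 lines; points are libraries, lines group means, blue GSK032 and orange DAC. In NOMO1 LILRB1 climbs with DAC to 11.3 and 12.0 FPKM while GSK032 stays near DMSO up to 2000 nM, and LILRB4 with DAC dips to 9.74 and 9.59 at 400 nM and returns above DMSO at 10000 nM.

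LAIR1, the inhibitory collagen receptor, rose with GSK032 in MV411 and, by smaller differences that depended on the scaling, in THP1 and NOMO1, and fell with high doses of DAC in NOMO1 and THP1. In NOMO1 it had 105 and 109 FPKM in day 4 DMSO, 72.7 and 73.8 with 400 nM DAC (-0.54, SE 0.063, adjusted p = 1.47e-08) and 51.1 and 49.2 with 10000 nM (-1.09, adjusted p = 4.3e-15, and -0.862 after median-ratio scaling). At 80 nM DAC it was above DMSO, at 114 and 139 FPKM (0.24). By day 6 at 400 nM DAC it stood at 55.3 and 59.0 FPKM against 107 and 112 (-0.94). GSK032 gave 113 and 110 FPKM at 400 nM on day 4, which did not pass, and 131 and 129 on day 6 (0.25, adjusted p = 0.00319, but 0.159 after scaling to equal sums). The direct difference was 0.60 at 400 nM (adjusted p = 3.49e-09) and 1.201 at 10000 nM (adjusted p = 1.31e-15).

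THP1 showed the same order at the top doses. LAIR1 measured 138 and 125 FPKM in DMSO, 149 and 151 with 400 nM GSK032 (0.19, SE 0.067, adjusted p = 0.0391), 171 and 160 with 10000 nM GSK032 (0.33), and 85.7 and 93.1 with 10000 nM DAC (-0.55, adjusted p = 4.11e-08). After scaling libraries to equal sums its rise with GSK032 in THP1 passed at no dose or day, with 0.138 at 400 nM (adjusted p = 0.688), 0.207 at 10000 nM (0.382), 0.354 on day 6 (0.155) and, at 2000 nM, -0.009 in place of 0.25. The 400 nM difference also did not pass without DMSO replicate 2 (0.123, adjusted p = 0.348), GSK032 replicate 1 (0.11) or GSK032 replicate 2 (0.149). GSK032 exceeded DAC by 0.89 at 10000 nM (adjusted p = 8.56e-12).

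In MV411 LAIR1 rose with both compounds at 400 nM. It went from 196 and 200.2 FPKM to 249 in both GSK032 libraries (0.33, SE 0.078, adjusted p = 0.00124) and 242 in both DAC libraries (0.29, adjusted p = 0.00411). Scaling to equal sums gave 0.621 for GSK032 and 0.201 for DAC, where DAC did not pass (adjusted p = 0.393), and median-ratio scaling gave 0.454 for DAC. The compounds differed by 0.045 (95% interval -0.12 to 0.20). Day 6 gave 349 and 331 FPKM with GSK032 and 327 and 315 with DAC, against 239.9 and 234 (0.52 and 0.44, neither passing after scaling to equal sums, with an adjusted p of 0.0546 and 0.244). At 10000 nM DAC its 182 and 159 FPKM lay below DMSO (-0.22, adjusted p = 0.0185), but the difference was 0.196 after median-ratio scaling and -0.698 after scaling to equal sums, so its direction there depended on the scaling.

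LILRA1, an activating receptor, moved in opposite directions in MV411 and NOMO1, and so did the 2 compounds within each line. In MV411 it had 7.73 and 7.67 FPKM in day 4 DMSO, 12.8 and 10.9 with 400 nM GSK032 (0.59, SE 0.13, adjusted p = 0.000637) and 17.1 and 15.0 with 10000 nM (1.01, and 0.917 without GSK032 replicate 1). With DAC it had 8.43 and 7.04 FPKM at 400 nM, which did not pass, and 4.96 and 4.44 at 10000 nM (-0.66, adjusted p = 7.22e-05, with -0.278 after median-ratio scaling and -1.093 after scaling to equal sums). At 10000 nM the compounds differed by 1.67 (SE 0.13, adjusted p = 1.99e-11), the largest direct difference among the members in that line.

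The day 6 comparison in MV411 read differently for DAC, where LILRA1 measured 8.13 and 8.63 FPKM against 5.00 and 5.83 in DMSO (0.59, adjusted p = 0.000515). GSK032 had 11.9 and 12.6 (1.11, adjusted p = 3.11e-08). The DMSO level on day 6 was the lowest of the 4 days.

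In NOMO1 LILRA1 rose with DAC, from 2.21 and 2.22 FPKM in DMSO to 3.58 and 3.25 at 400 nM (0.53, SE 0.11, adjusted p = 0.000158) and 6.28 and 6.23 at 10000 nM (1.32, adjusted p = 1.55e-11). GSK032 lowered it, to 1.68 and 1.49 FPKM at 400 nM (-0.38, adjusted p = 0.0134) and 1.36 and 1.23 at 2000 nM (-0.59). All 4 of those groups lay outside the DMSO pair. The 400 nM GSK032 fall did not pass after scaling to equal sums (adjusted p = 0.418), nor without DMSO replicate 1 (0.0628), DMSO replicate 2 (0.0782) or GSK032 replicate 2 (0.147). The direct difference at 10000 nM was -1.70 (SE 0.11, adjusted p = 1.35e-13), opposite in sign to that in MV411. LILRA1 was not tested in THP1, where its libraries ran from 0.193 to 0.759 FPKM.

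LILRA2, an activating receptor of monocytes and granulocytes that pairs with the FcR gamma chain, rose with GSK032 in every line. In MV411 it went from 15.1 and 15.3 FPKM in day 4 DMSO to 31.4 and 29.4 at 400 nM (0.98, SE 0.12, adjusted p = 3.05e-07) and 39.5 and 35.7 at 10000 nM (1.28). The summed level of 10 monocytic and myeloid markers, led by LYZ, went there from 1060 to 1230 FPKM in DMSO to 3550 to 3910 with 400 nM GSK032 and 2240 to 2700 with DAC, and its part in the result was not tested. In THP1 LILRA2 went from 19.6 and 17.1 to 27.9 and 34.5 (0.75, SE 0.16, adjusted p = 0.000626), and by day 6 to 40.7 and 43.4 against 19.5 and 20.3 (1.06). The marker sum in THP1 on day 4 was 722 to 800 FPKM in DMSO, 727 to 803 with 400 nM GSK032 and 828 to 849 with DAC. Its part was not tested there either. In NOMO1 LILRA2 went from 45.9 and 48.3 to 70.3 and 68.5 (0.55, SE 0.076, adjusted p = 2.3e-06).

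With DAC the lines parted. LILRA2 rose with 400 nM DAC to 21.9 and 20.8 FPKM in MV411 (0.48, adjusted p = 0.00281) and to 34.4 and 36.1 in THP1 (0.93, adjusted p = 2.07e-05, and 0.58 after scaling to equal sums). In NOMO1 it fell to 31.9 and 28.0 (-0.65, adjusted p = 1.76e-08), and by day 6 to 19.9 and 21.0 against 55.2 and 46.8 (-1.29, adjusted p = 5.87e-15, and -0.986 after scaling to equal sums). The compounds accordingly differed by 1.202 in NOMO1 (SE 0.076, adjusted p = 1.06e-13) and 0.50 in MV411 (adjusted p = 0.00974) at 400 nM, and by -0.18 in THP1 (95% interval -0.50 to 0.14). In MV411 that difference was 0.87 after scaling to equal sums and did not pass without GSK032 replicate 1 (adjusted p = 0.0819) or DAC replicate 2 (0.109). In THP1 the DAC rise was gone at the highest dose, with 20.6 and 23.6 FPKM at 10000 nM. In MV411 the rise at 10000 nM DAC of 0.41 became -0.055 after scaling to equal sums. In NOMO1 the summed level of 10 monocytic and myeloid markers at day 4 went from 5750 to 5970 FPKM in DMSO to 7140 to 7360 with 400 nM GSK032 and 3250 to 3730 with DAC. The sum follows its most abundant genes: with DAC 2 of the 10 were called higher, among them CD14 (4.72), and 2 lower, among them MPO (-2.82). Their part in the result was not tested.

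LILRA5, an activating receptor of monocytes, fell in MV411 from a low level. It measured 1.48 and 1.96 FPKM in day 4 DMSO and 0.718 to 1.29 in DMSO of the other days. With 400 nM GSK032 it had 0.459 and 0.141 FPKM (-1.495, SE 0.27, adjusted p = 5.4e-05), with 400 nM DAC 0.537 and 0.370 (-1.22, adjusted p = 0.000529, and -0.903 with a pseudocount of 1) and with 1000 nM GSK862 0.327 and 0.363 (-1.39, adjusted p = 0.000228). The treated libraries also lay below the DMSO libraries of all days. GSK477 at 10000 nM gave 0.702 and 0.616 FPKM on day 4, a difference of -0.93 that did not pass (adjusted p = 0.0851). GSK032 and DAC differed by -0.28 (95% interval -0.83 to 0.27).

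NOMO1 showed LILRA5 rising with DAC instead, from 3.28 and 3.56 FPKM to 5.34 and 5.21 at 400 nM (0.56, SE 0.22, adjusted p = 0.0306) and to 5.98 and 7.80 at 10000 nM (0.90). The 400 nM rise did not pass when any 1 of its 4 libraries was left out (adjusted p from 0.0661 to 0.129). GSK477 gave a similar value at 10000 nM, 6.14 and 7.59 FPKM (0.90, SE 0.22, adjusted p = 0.0283, but 0.134 after scaling to equal sums). That was the only difference from DMSO with GSK477 that passed among the members in any line. Of all genes, 1.4% (MV411), 0.375% (THP1) and 1.34% (NOMO1) passed with GSK477 on day 4, and 0.132%, 0.155% and 0.361% on day 2. In THP1 LILRA5 was too low to be tested, at 0.056 and 0.203 FPKM in DMSO and 0.572 and 0.740 with 10000 nM DAC.

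LILRA6, an activating receptor whose sequence is close to that of LILRB3, tracked LILRB3 in NOMO1. It had 0.596 and 0.962 FPKM in day 4 DMSO, 1.297 and 1.39 with 400 nM GSK032 (0.54, SE 0.19, adjusted p = 0.0481), 3.49 and 5.21 with 10000 nM GSK032 (1.92), 2.05 and 2.35 with 400 nM DAC (1.09, adjusted p = 1.72e-05) and 3.39 and 3.46 with 10000 nM DAC (1.63). All treated libraries lay above both DMSO libraries. Without DMSO replicate 1 the rise with 400 nM DAC was 0.885, and with a pseudocount of 1 it was 0.855. The rise with 400 nM GSK032 did not pass after scaling to equal sums (adjusted p = 0.0693), nor without DMSO replicate 1 (0.336, adjusted p = 0.419), GSK032 replicate 1 (0.125) or GSK032 replicate 2 (0.196). The sum of the FPKM of LILRB3 and LILRA6, taken because fragments they share could be split between them, rose by 0.897 with GSK032 (adjusted p = 0.00333) and 1.26 with DAC (adjusted p = 1.3e-05) at 400 nM. In THP1 LILRA6 had 0.065 and 0.13 FPKM in DMSO and 0.790 and 0.957 with 10000 nM DAC, untested. In MV411 no library exceeded 0.389 FPKM.

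**Figure D4:**
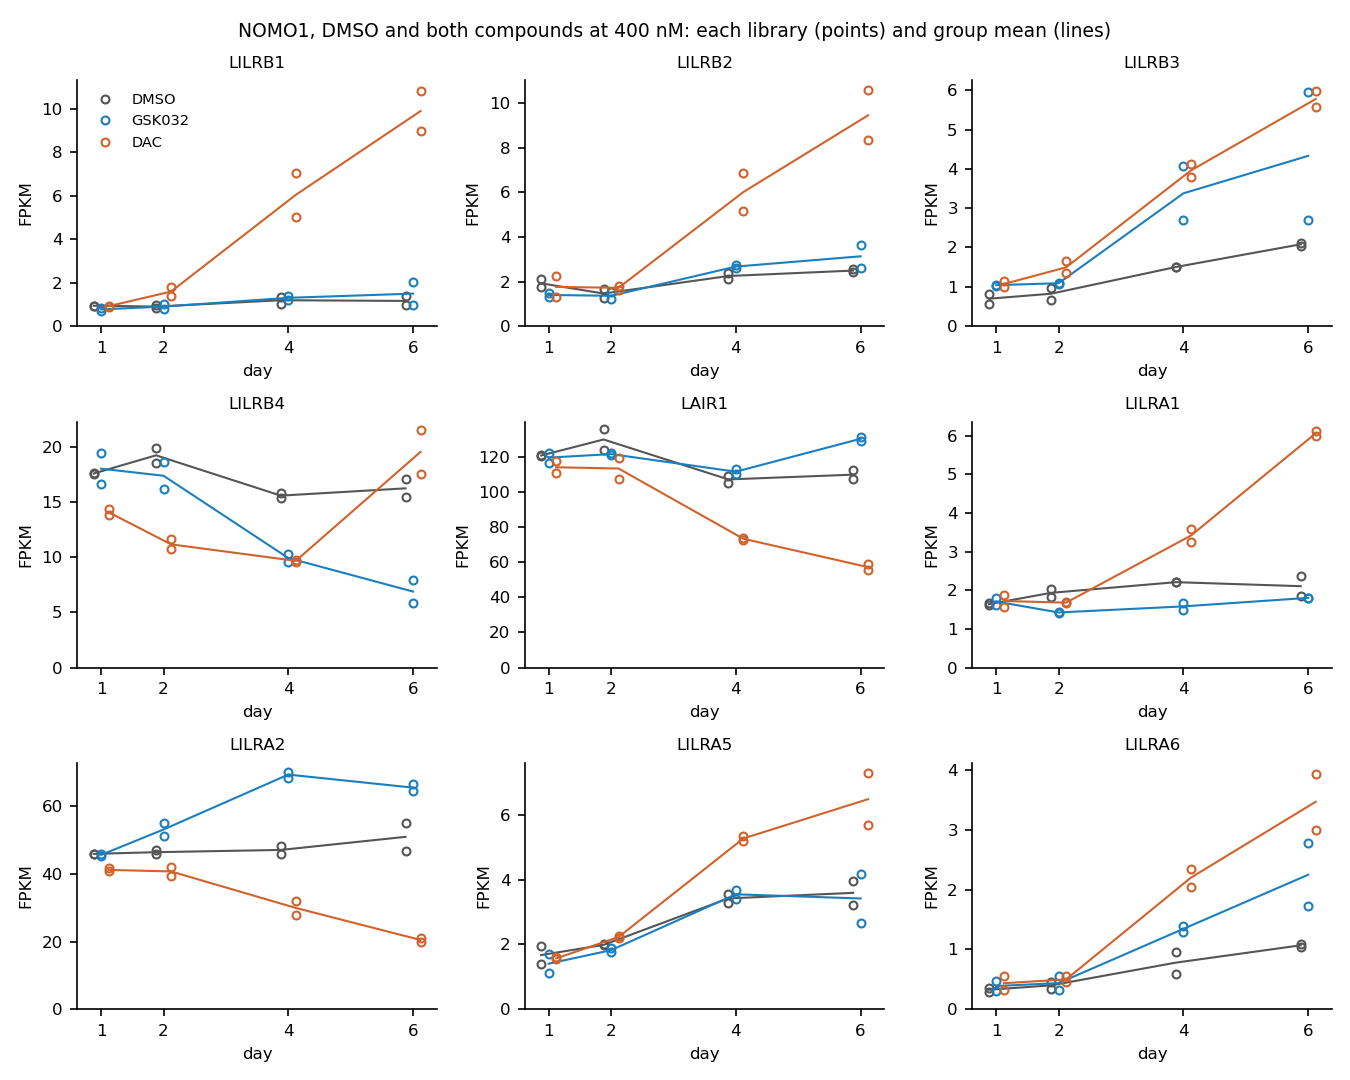
FPKM of the 9 receptor genes in NOMO1 against day for DMSO (grey), GSK032 (blue) and DAC (orange) at 400 nM; points are libraries and lines group means. LILRB1 with DAC reaches 8.98 and 10.8 on day 6 against 0.952 and 1.36 in DMSO, LILRA2 parts upward with GSK032 and downward with DAC, and LILRB4 with DAC falls to day 4 and returns by day 6.

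The slope over the 6 doses at day 4, expressed for the 5 steps from 3.2 to 10000 nM, gives each dose series as 1 value. For DAC in NOMO1 it was 3.01 for LILRB1, 2.27 for LILRB3, 1.95 for LILRA6, 1.62 for LILRB2, 1.45 for LILRA1, 1.05 for LILRA5 and 0.31 for LILRB4, and -1.41 for LAIR1 and -0.83 for LILRA2, so that all 9 passed (64% of genes). Scaling changed the slopes of LILRB4 (0.601 by median ratios, 0.522 for equal sums) and LILRA2 (-0.534 by median ratios), and that of LILRA5 fell under 1 without 3.2 nM replicate 1 (0.978), 16 nM replicate 2 (0.989) or 10000 nM replicate 2 (0.919). For GSK032 in NOMO1 it was 1.81 for LILRB3, 1.74 for LILRA6, 0.80 for LILRB2, 0.43 for LILRA2 and 0.18 for LAIR1, and -1.498 for LILRB4 and -0.54 for LILRA1, so that 7 of 9 passed (50.4% of genes). That of LAIR1 did not pass after scaling to equal sums (adjusted p = 0.119). LILRB2, LILRB3 and LILRA6 thus sloped up with both compounds in NOMO1, while LILRB4, LAIR1, LILRA1 and LILRA2 had opposite signs.

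The slopes that passed in MV411 were, with GSK032, 1.396 for LILRA2, 1.298 for LILRA1, 0.44 for LAIR1 and -1.65 for LILRA5, and with DAC 1.54 for LILRB3, 0.78 for LILRA2, -0.30 for LILRB1 (0.133 after median-ratio scaling, -0.79 for equal sums), -0.59 for LILRA1, -1.13 for LILRA5 and -1.22 for LILRB4. That is 4 and 6 of 8 members, where 54.3% and 60.3% of genes passed. The DAC count includes LILRB3, whose slope rests on the high-dose DAC groups through which it entered the tests. Median-ratio scaling gave -0.761 for LILRB4, -0.872 for LILRA5, -0.168 for LILRA1 (adjusted p = 0.143) and 1.229 for LILRA2 with DAC, and 0.702 for LAIR1 with GSK032. Scaling to equal sums gave 0.261 for LILRA2 (adjusted p = 0.0604) and -1.081 for LILRA1 with DAC. Without DAC 10000 nM replicate 2 the slopes of LILRB4 (-0.997) and LILRA5 (-0.985) were under 1 in size, and that of LILRA5 was -0.885 without 3.2 nM replicate 2. In THP1 they were 1.26 for LILRA2, 1.12 for LILRB2, 0.59 for LILRB1, 0.42 for LAIR1 and -0.60 for LILRB4 with GSK032, and 0.82 for LILRB3, 0.60 for LILRB1, 0.58 for LILRB2, 0.53 for LILRA2, -0.52 for LAIR1 and -1.71 for LILRB4 with DAC. That is 5 and 6 of 6 members, where 45.3% and 59.2% of genes passed. Here too LILRB3 was tested only through its 10000 nM DAC group, so its DAC slope was set up by that group. After scaling to equal sums the THP1 slopes of LAIR1 with GSK032 (0.128, adjusted p = 0.47) and of LILRB1 (0.0798), LILRB2 (0.182) and LILRA2 (0.402) with DAC did not pass, and LAIR1 with DAC had -0.909. LILRB4 in THP1 thus sloped down with both compounds.

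GSK862 at 1000 nM, a dose at which GSK032 was not given, is set beside 400 nM GSK032 without a comparison. On day 4 in MV411 it gave LILRA5 -1.39, LILRA2 0.75, LILRA1 0.59 and LAIR1 0.23, where 400 nM GSK032 gave -1.495, 0.98, 0.59 and 0.33, and LILRA5 was the 1 member of 8 called (5.37% of genes). With GSK862 on day 4 the share of all genes that passed was 23.6% (MV411), 12.5% (THP1) and 17.9% (NOMO1). The NOMO1 differences with GSK862 were LILRB3 0.998, LILRA6 0.67, LILRA2 0.51, LILRB4 -0.67 and LILRA1 -0.42, where GSK032 gave 0.93, 0.54, 0.55, -0.63 and -0.38. In THP1 LILRA2 alone passed (0.73), with 28.2 and 33.2 FPKM against 19.6 and 17.1. No member passed with GSK862 on day 2 (5.09%, 1.56% and 2.71% of genes in the 3 lines). After scaling to equal sums LAIR1 in MV411 (adjusted p = 0.246) and LILRA1 (0.209) and LILRA2 (0.0876) in NOMO1 did not pass with GSK862. The day 4 comparisons share their DMSO libraries.

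GSK032 and DAC were also set against GSK477 at the same 10000 nM and day 4. The fall of LILRA5 in MV411 did not pass in that comparison, with 95% intervals of -1.17 to -0.075 for GSK032 and -0.675 to 0.42 for DAC. In NOMO1, DAC exceeded GSK477 in LILRB1 by 2.33, LILRB3 by 1.33, LILRB2 by 1.18, LILRA1 by 1.18 and LILRA6 by 1.02 (0.818 without GSK477 replicate 1), and was lower in LAIR1 (-0.99) and LILRA2 (-0.64, with -0.405 after median-ratio scaling). GSK032 exceeded it there in LILRB3 by 1.60, LILRA6 by 1.298 and LILRB2 by 0.70 and was lower in LILRB4 (-1.12, and -0.836 without GSK032 replicate 1) and LILRA1 (-0.53, with an adjusted p of 0.0804 after scaling to equal sums). In MV411, GSK032 exceeded it in LILRA2 by 1.27 and LILRA1 by 0.74, and DAC was lower in LILRB4 (-1.31, but -0.839 after median-ratio scaling) and LILRA1 (-0.93, but -0.49). In MV411 the DAC differences of LAIR1 (-0.30) and LILRA2 (0.40) from GSK477 became 0.174 after median-ratio scaling and -0.06 after scaling to equal sums. In THP1, LILRB4 was lower with DAC (-1.28) and LILRA2 higher with GSK032 (1.08, and 0.863 without GSK477 replicate 1). LILRA5 in NOMO1 did not differ measurably between DAC and GSK477 (95% interval -0.44 to 0.44).

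The receptors' signalling partners moved in both directions. Of 14 signalling partners at 400 nM and day 4, those that passed were 4 higher and 2 lower with GSK032 and 3 and 4 with DAC in MV411, 3 and 1, and 4 and 3, in THP1, and 5 and 0, and 4 and 5, in NOMO1. For GSK032 the matching share of all genes was 33.2% (MV411), 23% (THP1) or 18.5% (NOMO1). For DAC it was 35.8%, 38.5% or 52.3%, by line in the same order. Counts out of 14 were not tested against these shares, so they do not set the partners apart from other genes. The Src-family kinase FGR rose in MV411 from 6.55 and 7.44 FPKM to 38.6 and 33.4 with GSK032 (2.28) and 26.4 and 27.1 with DAC (1.87), and in NOMO1 by 1.26 and 1.02. FCER1G, the adaptor of the activating receptors, fell in MV411 from 54.8 and 34.3 FPKM to 24.7 and 17.2 with GSK032 (-1.05, SE 0.28, adjusted p = 0.00391) and 19.3 and 14.9 with DAC (-1.33). TYROBP, which encodes the adaptor DAP12, rose with DAC in all 3 lines (1.09, 1.23 and 1.01), and in NOMO1 went from 221 and 191 FPKM to 425 and 402. SYK, the kinase that binds phosphorylated adaptors, fell with DAC in NOMO1 from 72.5 and 75.4 FPKM to 35.4 and 32.0 (-1.12, adjusted p = 2.95e-13).

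Of the 20 ligand genes listed, the tests covered 18 in NOMO1, 16 in THP1 and 13 in MV411. The called ones were all higher: 4 with GSK032 and 6 with DAC in MV411, 3 and 8 in THP1, 1 and 7 in NOMO1. The shares of all genes called there were 9.31% and 10.2%, 2.27% and 8.16%, and 2.93% and 19.1%, so that 1 of 18 with GSK032 in NOMO1 is close to its share. In MV411 their median difference was 0.89 with GSK032 and 1.01 with DAC, in THP1 0.40 and 1.3, and NOMO1 gave 0.54 and 0.66, where the median of all genes was between -0.029 and 0. APOE, the apolipoprotein described to bind LILRB4, rose with DAC in NOMO1 from 5.29 and 4.05 FPKM to 37.3 and 49.4 (3.08, SE 0.23, adjusted p = 1.61e-12) and in THP1 from 11.1 and 12.7 to 65.6 and 63.5 (2.39). COL1A1, a collagen chain and so a possible ligand of LAIR1, rose with DAC in NOMO1 from 0.191 and 0.461 FPKM to 7.65 and 8.49 (3.39), and C1QA from 0.845 and 0.672 to 6.25 and 8.40 (2.63). HLA-F rose with GSK032 in MV411 (1.42) and THP1 (1.35). Genes that were silent in DMSO entered these counts only through the treated groups.

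Within the cluster itself, the 20 other immunoglobulin-like receptor genes listed gave 8 tested genes in NOMO1 and 3 in each of the others. With DAC in NOMO1 6 of 8 were called, all higher (7 passed), and with GSK032 2 of 8 (19.1% and 2.93% of all genes called). Genes low in DMSO may have been tested only through treated groups where they were high, which favors a higher call. NCR1 was one such gene, at 0.0855 and 0.0693 FPKM in day 4 DMSO and 1.4 and 1.335 with DAC. VSTM1, an inhibitory receptor of myeloid cells, rose in NOMO1 from 0.734 and 1.13 FPKM to 8.91 and 9.47 with GSK032 (2.77) and 8.49 and 9.52 with DAC (2.74). OSCAR, a collagen receptor that pairs with the FcR gamma chain, rose with DAC from 1.01 and 0.867 to 4.90 and 7.21 (2.17). KIR3DX1 fell in MV411 with both compounds (-1.47 and -1.68). Of the 19 neighbouring genes of other families listed, 17 were tested in NOMO1, of which 3 were called higher and 1 lower with DAC and none with GSK032, so that 4 of 17 with DAC is near the 19.1% of all genes. The 3 higher were NLRP2 (2.18), CDC42EP5 (1.28) and TMC4 (1.13). All 3 had at most 0.5475 FPKM in NOMO1 DMSO of day 4, so the same limit holds for them. For MV411 the count was 2 of 15 with DAC and for THP1 1 of 16, both including TMC4, beside 10.2% and 8.16% of all genes.

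The genes most like each member were found from the 26 group means of a line, as a description with no test. In NOMO1 LILRB1 was most like ACVR1C (Pearson r = 0.989), USP53 (0.983) and RGS9 (0.981), LILRB2 most like HMGA2 (0.983) and FTH1 (0.982), and LILRB3 and LILRA6 most like each other (0.986), followed for both by ITGB2-AS1 (0.977 and 0.976). LAIR1 was most like ZC3HAV1 (0.978), LILRA1 like DUSP22 (0.96), LILRA2 like C19orf38 (0.96), LILRA5 like GLIS2 (0.931) and LILRB4 like APOL6 (0.88). Among members in NOMO1, LILRB1 and LILRB2 had r = 0.934, LILRB1 and LAIR1 -0.91, LILRA1 and LAIR1 -0.919, and LILRA1 and LILRA2 -0.856. The points share libraries and the same DAC series.

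MV411 and THP1 gave other genes. LILRB4 was most like MFSD14A in MV411 (0.948) and YDJC in THP1 (0.977), LAIR1 most like FES (0.943) and SLC12A9 (0.962), LILRA2 most like RASIP1 (0.941) and TMC8 (0.96), and LILRB2 most like MRPL45P2 (0.668) and MET (0.923). LILRB1 was most like MAVS in MV411 (0.789) and MAPK13 in THP1 (0.793), and LILRB3 most like SEMA3B (0.831) and HOPX (0.841). In MV411 LILRA1 was most like SLC25A12 (0.925) and LILRA5 most like AL049840.2 (0.873).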

How the data were processed

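RNA of 156 libraries from 3 cell lines was measured as total RNA on 150-base paired-end runs, per the labels' protocols. The submitters' processing notes name Salmon 0.12.0, DESeq2 and, as the build, hg38. How FPKM came from them, and whether strand was used, is not given in the sources used here. For each line the authors deposited an FPKM table. Their tables of fold changes were not used. GENCODE 29 named 56511 of 59939 identifiers (94.3%). Members, lists and the naming rule were chosen with earlier results of these data known. The rule took all 9 members, up to 3 called genes per list, line and compound at 400 nM and day 4 (the largest changes with a mean of at least 1 FPKM in the higher group), and the 3 genes of highest Pearson r over group means.

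Each line was fitted apart on log2(FPKM + 0.5), computed from the deposited values, by limma 3.58.1 (R 4.3.3), over genes that reached 1 FPKM in at least 2 libraries. The fit had 26 group means and 26 residual degrees of freedom, so the groups of 2 share 1 estimate of the spread, with a variance trend and Benjamini-Hochberg adjustment over all genes of a contrast. Called means an adjusted p under 0.05 and a log2 difference of at least 1. The fit was tested on simulated data with known changes. Alternatives were other pseudocounts, filters and scalings, no variance trend, only the groups compared, a replicate block, LILRB3 and LILRA6 summed, and leaving out each library. Promoters were aligned with Biopython 1.88. The 4 MV411 libraries of GSK862 and GSK477 on day 4 could be placed in a group but not numbered.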

Additional observations from a re-analysis of the deposited data

Results flagged for a closer look

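The effect of 400 nM differed between day 6 and day 1, by a test of that difference in limma, for 8 members and compounds with a change of at least 1 on the log2 scale. None of them passed on day 1. The share of all genes with such a difference is not given here, so the count does not set the receptors apart. With 400 nM DAC in NOMO1, 3.09% of all genes passed on day 1 and 24.6% were called on day 6. In NOMO1 with DAC the day 6 effect minus the day 1 effect was 2.677 for LILRB1 (SE 0.38, adjusted p = 9.18e-07), 1.855 for LILRB2 (SE 0.30, adjusted p = 7.43e-06), 1.288 for LILRA1 (SE 0.16, adjusted p = 6.22e-08), 1.162 for LILRA6 (SE 0.27, adjusted p = 0.000783) and -1.137 for LILRA2 (SE 0.11, adjusted p = 5.3e-10). In NOMO1 with GSK032 it was -1.223 for LILRB4 (SE 0.20, adjusted p = 6.52e-05). MV411 had 1.187 for LILRA1 with GSK032 (SE 0.18, adjusted p = 8.05e-06) and THP1 1.103 for LILRB2 with DAC (SE 0.27, adjusted p = 0.00236). Of these 8, 3 fell under 1 in size under an alternative: LILRA2 (-0.822 after scaling to equal sums, -0.95 by median ratios), LILRB2 in THP1 (0.986 with an adjusted p of 0.0455 after scaling to equal sums, 0.868 with a pseudocount of 1, 0.942 without DMSO day 6 replicate 1) and LILRA6 (0.995 with a pseudocount of 1, 0.982 without DAC day 1 replicate 2, 0.992 without DAC day 6 replicate 2).

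Other members passed in opposite directions in 2 lines at 400 nM and day 4. The difference between lines was not tested, since the lines have separate tables. With GSK032, LILRA1 rose by 0.585 in MV411 and had -0.382 in NOMO1. With DAC, LILRB1 had -0.322 in MV411 and 1.942 in NOMO1, LILRA5 -1.219 in MV411 and 0.559 in NOMO1, and LAIR1 0.286 in MV411 and -0.544 in NOMO1. LILRA2 rose with DAC by 0.477 in MV411 and 0.927 in THP1 and had -0.648 in NOMO1. In each line both libraries of the treated group lay on the stated side of both DMSO libraries. After scaling to equal sums LILRA1 in NOMO1 (adjusted p = 0.418) and LILRB1 (0.114) and LAIR1 (0.393) in MV411 did not pass.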

How the results depend on the processing

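For the 69 member differences at 400 nM and day 4, 882 of 900 alternative values left the call status as it was. Called again means an adjusted p under 0.05 and a log2 difference of at least 1. Most of the 69 were not called in the main fit, so most unchanged values were uncalled ones that stayed uncalled. Among the few called differences 7 values lost the call, and 11 values of uncalled ones gained it. The adjusted p alone was less stable: 63 values of 16 differences went to 0.05 or more and 12 values of 3 differences went under it. Of the 63, 34 came from leaving out 1 library, 12 from fitting only the groups compared, 8 from equal sums and 2 from median ratios. No difference that passed changed sign under these alternatives. Over all 38 contrasts per line, equal sums ended 16 of 84 passing differences in MV411, 23 of 71 in THP1 and 27 of 147 in NOMO1, and median ratios 6, 1 and 1. The sign changed for 2, 1 and 0 of them with equal sums and 3, 0 and 0 with median ratios. Of 108 differences called elsewhere, 66 kept the call under each alternative run, 42 lost it under at least 1, 29 of them without 1 library, mostly by slipping under a log2 difference of 1, and 5 had an adjusted p of 0.05 or more without 1 library. These 5 were MV411 LILRB3 with 2000 nM DAC and against GSK477 (0.0661 without 1 GSK477 library), MV411 LILRA5 with 80 nM DAC (0.0518 to 0.111), NOMO1 LILRB1 with 10000 nM GSK032, and NOMO1 LILRB3 from day 1 to day 6 of DMSO (0.0612 and 0.115).

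The counts of called members at 400 nM and day 4 that moved by over 1.5 times were as follows. A pseudocount of 1 gave 0 in MV411 and 2 in NOMO1 with DAC, and a pseudocount of 0.1 gave 1 in NOMO1 with GSK032. Scaling to equal sums gave 2 in MV411 with GSK032, 1 in THP1 with DAC and 1 in NOMO1 with GSK032. Median-ratio scaling gave 2 in MV411 with GSK032 and 1 in THP1 with DAC. Smaller moves were in NOMO1: 3 in place of 4 with DAC without DMSO replicate 1, and 2 or 4 in place of 3 for GSK032 against DAC, with 2 at a pseudocount of 1 and without GSK032 replicate 1 or DAC replicate 2, and 4 at a pseudocount of 0.1 and by median ratios. Leaving out each library gave 1 to 2 in MV411 with GSK032, 0 to 1 in THP1 with DAC and 0 to 1 in NOMO1 with GSK032. The cause of these moves was not tested. The 2 scalings moved the median of all genes by up to -0.471 (equal sums) and 0.417 (median ratio), both over the MV411 DAC doses. Each member has 1 identifier, so the alternative of summing identifiers was not run. Libraries of the same number shared little (correlation of deviations 0.042 to 0.134), so the numbers do not pair them. With the replicate block the counts were unchanged in all 9 comparisons, 4 called members in NOMO1 with DAC among them. Without counts, low values such as LILRA6 in MV411 have no counting error.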

Other observations

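Receptors of myeloid cells outside the cluster were also listed. Of 22 such genes (sialic acid, CD300, TREM and related receptors), 19 were tested in MV411 and THP1 and 20 in NOMO1, and at 400 nM and day 4 the called ones were all higher, 7 with GSK032 and 7 with DAC in MV411, 2 and 6 in THP1, 1 and 9 in NOMO1. The shares of all genes called were 9.31% and 10.2%, 2.27% and 8.16%, and 2.93% and 19.1%. With DAC in NOMO1 14 of the 20 passed higher and 3 lower (52.3% of all genes passed). Genes low in DMSO, such as SIGLEC1 in MV411 (0.158 and 0.108 FPKM), could enter these counts only through groups where they were high. SIGLEC10, an inhibitory receptor for sialic acid, rose from 1.05 and 1.11 FPKM to 4.89 and 4.64 with GSK032 and 6.87 and 8.21 with DAC in MV411, and from 2.23 and 1.60 to 4.35 and 5.37 and to 15.6 and 16.0 in NOMO1. SIGLEC1 rose in THP1 from 1.45 and 1.18 FPKM to 5.51 and 5.16 with GSK032 (1.69) and 8.84 and 9.71 with DAC (2.43). TREM1 rose with DAC in NOMO1 from 3.41 and 2.09 FPKM to 22 and 25.4 (2.92).

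With DAC, IRF8, a transcription factor of the monocyte lineage, fell in THP1 from 238 and 222 FPKM to 109 and 112 (-1.05) and in NOMO1 from 56.2 and 66.4 to 17 and 22.4 (-1.62). In NOMO1 with DAC, the myeloid enzyme MPO was at 233 and 229 FPKM against 1512 and 1770 in DMSO, while the monocyte antigen CD14 was at 49.9 and 71.7 against 1.78 and 1.82.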
